A study of Mus musculus with 12 samples.

Results

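Protein phosphatase 1 (PP1) is one of the main serine/threonine phosphatases of the heart. A catalytic subunit (PP1α, β or γ) binds a regulatory partner that either blocks it, as the small inhibitors do, or carries it to a site such as glycogen or the sarcoplasmic reticulum, the calcium store of the muscle cell. In cardiomyocytes PP1 removes phosphate groups that protein kinase A (PKA) sets under β-adrenergic stimulation, and inhibitors that PKA itself switches on hold PP1 back at that time. The genes described here are 9 members of this system: the inhibitors Ppp1r1a, Ppp1r1b, Ppp1r1c and Ppp1r2, the glycogen-targeting subunits Ppp1r3a and Ppp1r3c, and the catalytic subunits Ppp1ca, Ppp1cb and Ppp1cc. They were found by name, or by an older name, among the transcript probes of the array. The set was chosen by the measured levels of Ppp1r1c in knockout and dflox hearts, described below. All 9 genes were present among the 27669 of the array, with 20 of 41174 probes. To enter the fit of 18258 genes, a probe had to be well above background in every heart of 1 or more groups, and each of the 9 had such a probe. Of the 20 probes, 18 met this condition, and the others were 2 probes of Ppp1r1c.

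RNA came from whole hearts of 12 male C57BL/6 mice, 1 heart per array and 3 hearts per group. The cardioGRMRdKO mice, called knockout here, carried floxed alleles of Nr3c1, encoding the glucocorticoid receptor, and of Nr3c2, encoding the mineralocorticoid receptor, together with a Cre recombinase driven in cardiomyocytes by the αMHC promoter. The dflox mice were littermates that carried the same floxed alleles without Cre. The 4 groups were knockout hearts at 2 months, dflox hearts at 2 months, knockout hearts at 1 month and dflox hearts at 1 month. Cre was present in every knockout heart and in no dflox heart, so Cre and receptor loss cannot be told apart. Whole hearts also hold cells that this promoter does not drive, and in bulk RNA fewer cells of a type and less RNA per cell cannot be told apart. The deleted exons are not stated in the labels.

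Between 63.7% and 71.9% of transcript spots per array were well above background. Nr3c1 was lower in every knockout heart with a usable spot than in every dflox heart of its age, by 1.10 on the log2 scale at 2 months (limma, adjusted p = 0.00566) and by 0.73 at 1 month (limma, adjusted p = 0.119). Nr3c2 was dim and its groups overlapped at both ages. The arrays lay on 3 slides. Knockout arrays of 1 month all lay at inner places of their slides, and dflox arrays of 1 month all at outer places. The summed level of 10 cardiomyocyte marker genes was 1231 in knockout replicate 3 at 2 months and 2087 to 2623 in the other 11 hearts (linear scale, 1 being the array's 75th percentile), and at 1 month every knockout heart was below every dflox heart.

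The probes of 4 members carry most of what follows, and their 60-base sequences show which stretch of each transcript was read. Ppp1r1c had 3 probes on chromosome 2 (mm7, + strand), at chr2:79652624-79652683, chr2:79654278-79654337 and chr2:79661407-79661466. Ppp1r1b had 1 probe, which covered 1375 bases of genome from end to end, at chr11:98464535-98465909 (+ strand). Ppp1r3c had 2 at chr19:36432652-36432711 and chr19:36433982-36434041 (- strand), and the 2 probes of Ppp1r3a that are compared below lay at chr6:14655348-14655407 and chr6:14695719-14695778 (- strand). Exons and UTRs are not stated, as no annotation of mm7 was used here. In the order named, 5′ to 3′ and with no base marked, the probes are:
Ppp1r1c, A_52_P445565: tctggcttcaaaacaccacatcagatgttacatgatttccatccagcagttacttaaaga
Ppp1r1c, A_51_P162357: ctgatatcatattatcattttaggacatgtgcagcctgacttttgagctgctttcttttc
Ppp1r1c, A_52_P462233: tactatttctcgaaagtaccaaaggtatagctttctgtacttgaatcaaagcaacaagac
Ppp1r1b, A_52_P664867: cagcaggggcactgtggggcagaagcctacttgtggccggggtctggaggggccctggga
Ppp1r3c, A_52_P30451: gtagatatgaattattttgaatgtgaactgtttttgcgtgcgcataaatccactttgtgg
Ppp1r3c, A_51_P521010: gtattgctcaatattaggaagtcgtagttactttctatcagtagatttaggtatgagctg
Ppp1r3a, A_52_P385489: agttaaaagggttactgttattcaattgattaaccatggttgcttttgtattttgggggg
Ppp1r3a, A_52_P634083: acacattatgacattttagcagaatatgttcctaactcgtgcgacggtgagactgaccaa

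Ppp1r1c, which encodes a PP1 inhibitor related to inhibitor-1, had the largest difference between genotypes of the 9 genes at 2 months, and was also higher in knockout hearts at 1 month. Levels are log2 values relative to the array's 75th percentile, which is 0. At 2 months its level was -2.96, -2.88 and -2.47 in knockout hearts and -7.24, -7.00 and -6.56 in dflox hearts. The 1-month levels were -5.60, -4.76 and -5.02 in knockout hearts and -7.46, -7.42 and -8.29 in dflox hearts. Every knockout heart was above every dflox heart of its age, and every 2-month knockout heart was above every 1-month knockout heart. The signal was well above background in 3 of 3 knockout hearts at 2 months and in 2 of 3 at 1 month, replicate 1 being the exception. It was not well above background in any of the 6 dflox hearts, so the fold at 2 months was set against a detection floor, which gave 8.79-fold higher. This is not a firm bound, as it depends on the background correction. With normexp, described below, the 2-month difference was 0.92 on the log2 scale. At 1 month the calculation against the floor gave 1.61-fold. That value is not a firm bound either, since its knockout mean also includes replicate 1, which was not well above background. Both values set the mean of the knockout hearts against the lowest signal called well above background on each dflox array, or the probe's own signal where that was higher.

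The measured differences of Ppp1r1c were 4.16 at 2 months (SE 0.291) and 2.60 at 1 month (SE 0.291), knockout minus dflox on the log2 scale. Its rise in the knockout is what led to the choice of these genes, so neither difference is tested. Within a slide, the difference was 4.76 on slide 1 and 3.90 on slide 3 at 2 months, and 2.71 on slide 1 and 2.83 on slide 2 at 1 month. It was 4.01 at 2 months without knockout replicate 3. When background was corrected with normexp (offset 50) from the mean and local background intensities, it was 0.92 at 2 months and 0.10 at 1 month. A summed list of 9 macrophage markers, all measured, also did not overlap between genotypes: 25.2 to 30.2 in knockout hearts against 22.2 to 23.0 in dflox hearts at 2 months, and 29.4 to 31.4 in knockout hearts against 23.5 to 27.4 in dflox hearts at 1 month (linear scale). At 1 month further marker sums did not overlap and were lower in knockout hearts. The gap was widest for airway epithelium, where 10 of 11 markers summed to 3.57 to 7.65 in knockout hearts and 55.2 to 119 in dflox hearts. The other sums were 2087 to 2460 in knockout hearts and 2509 to 2623 in dflox hearts for 10 cardiomyocyte markers, 319 to 354 in knockout hearts and 363 to 422 in dflox hearts for 8 fibroblast markers, and 73.7 to 75.1 in knockout hearts and 76.4 to 80.9 in dflox hearts for 8 endothelial markers, all measured. Apart from a fit with the airway markers as a covariate, given below, the part of these lists in the differences of Ppp1r1c and the other genes was not tested.

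The other 2 Ppp1r1c probes did not show the difference. They begin 1654 and 8783 bases downstream of the first. A_51_P162357 read -8.02, -6.01 and -8.65 in knockout hearts and -8.12, -6.42 and -5.85 in dflox hearts at 2 months, and only dflox replicate 3 was well above background there. A_52_P462233 was not well above background on any of the 12 arrays. Both were named in the files from cDNA accessions, unlike the first probe, which carries a RefSeq accession, and the groups overlapped in every comparison on both.

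**Figure D1:**
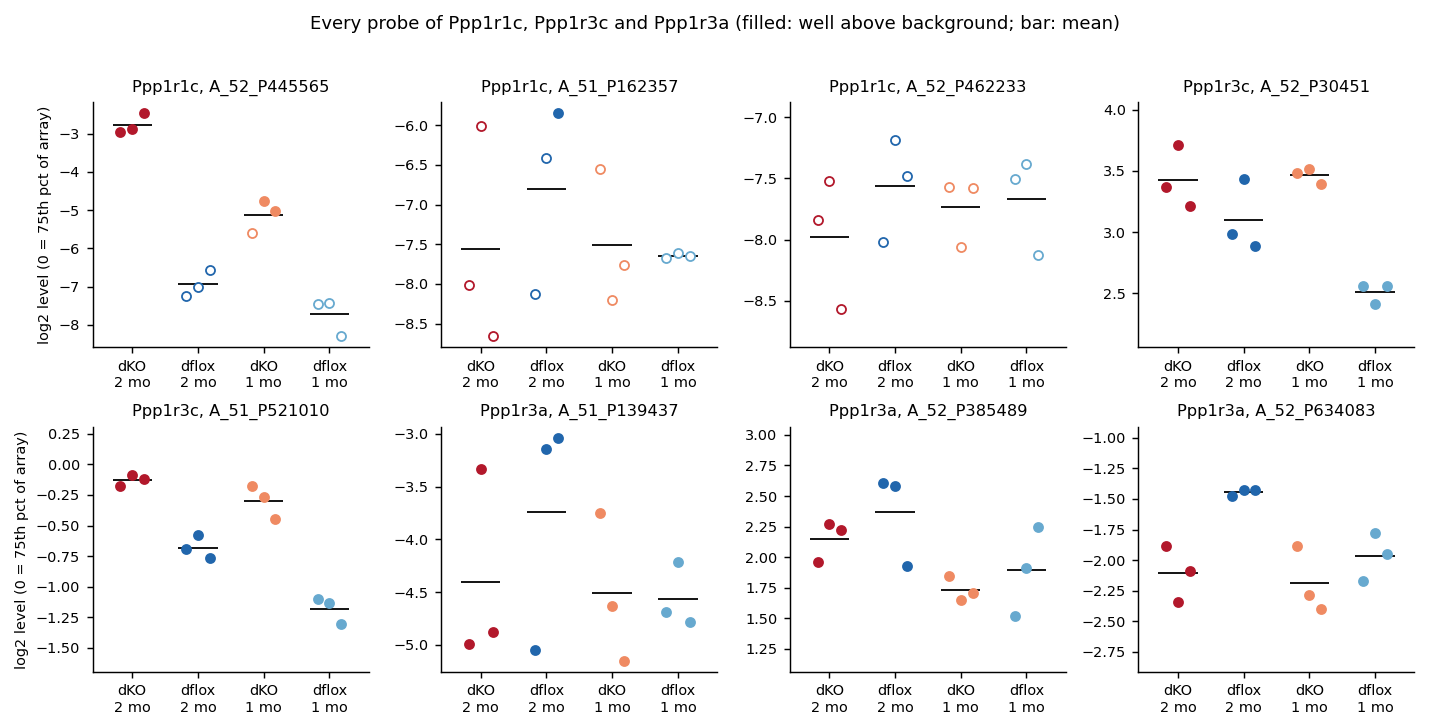
Log2 level (0 is the array's 75th percentile) of every probe of Ppp1r1c, Ppp1r3c and Ppp1r3a in each heart, with a separate vertical scale per panel. Points are hearts (filled where well above background), bars are group means, dKO is cardioGRMRdKO and mo is months. Of the Ppp1r1c probes only the first separates the genotypes, both Ppp1r3c probes do so at 1 month, and Ppp1r3a probe A_52_P634083 does so at 2 months.

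Ppp1r1b, which encodes DARPP-32, a PKA-dependent PP1 inhibitor best known from dopamine-responsive neurons of the striatum, was lower in knockout hearts at both ages. At 2 months its level was -3.66, -3.11 and -3.53 in knockout hearts and -2.57, -2.58 and -2.12 in dflox hearts. The 1-month levels were -3.06, -3.55 and -3.55 in knockout hearts and -1.94, -2.29 and -2.28 in dflox hearts. The genotypes did not overlap at either age, and the probe was well above background on all 12 arrays. The difference was -1.01 at 2 months (95% interval -1.46 to -0.56), 0.497 of the dflox level, and -1.22 at 1 month (-1.67 to -0.77), 0.431 of the dflox level. Within slides it was -0.95 and -0.76 at 2 months and -1.61 and -1.26 at 1 month. With normexp the difference at 1 month was -0.72. Of 10 neuron markers, Nefm, Th, Drd1 and Gap43 did not pass the filter. The other 6 summed to 0.790 to 1.35 in knockout hearts and 0.738 to 1.14 in dflox hearts at 2 months, and to 0.831 to 1.04 in knockout hearts and 0.821 to 1.13 in dflox hearts at 1 month (linear scale). Of these 6, 4 were below 0 in the genotype difference at 2 months and 5 at 1 month, beside 11498 and 9183 of all 18258 genes. At 2 months 1 of the 6 passed an adjusted p under 0.05 in limma, and it was higher in knockout hearts, beside 1.10% of all genes. The part of these markers in the Ppp1r1b values was not tested.

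Ppp1r1a encodes inhibitor-1, the classical PKA-activated inhibitor that in cardiomyocytes restrains PP1 near the sarcoplasmic reticulum. Its level varied widely among hearts of 1 group. It was 0.56, -0.02 and 1.15 in knockout hearts and 0.38, 0.03 and 0.80 in dflox hearts at 2 months, and 0.11, 1.07 and 0.68 in knockout hearts and 0.84, 0.68 and 0.96 in dflox hearts at 1 month. The genotypes overlapped at both ages. The differences were 0.16 at 2 months (95% interval -0.55 to 0.87) and -0.21 at 1 month (-0.92 to 0.50). With 3 hearts a group these intervals were wide and held differences in either direction. Its highest value, at 2 months, was in knockout replicate 3, the heart with the lowest cardiomyocyte marker sum.

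Ppp1r2, encoding inhibitor-2, which binds the free catalytic subunit and does not need PKA, had 5 probes. On the brightest, the level was 1.18, 1.71 and 1.11 in knockout hearts and 1.38, 1.78 and 1.67 in dflox hearts at 2 months, a difference of -0.28 (95% interval -0.66 to 0.10). The levels at 1 month were 1.73, 1.47 and 1.46 in knockout hearts and 1.72, 1.59 and 1.53 in dflox hearts, giving a difference of -0.06 (-0.44 to 0.32). All 5 probes overlapped between the genotypes at both ages.

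Ppp1r3c encodes protein targeting to glycogen, which brings PP1 to glycogen particles, where dephosphorylation turns glycogen synthase on and phosphorylase off. It was higher in knockout hearts, most clearly at 1 month. At 1 month its brighter probe read 3.49, 3.52 and 3.39 in knockout hearts and 2.56, 2.41 and 2.56 in dflox hearts, giving a difference of 0.95 (95% interval 0.59 to 1.32), or 1.94-fold. At 2 months it read 3.37, 3.71 and 3.21 in knockout hearts and 2.98, 3.43 and 2.88 in dflox hearts, giving a difference of 0.33 (-0.03 to 0.69). The genotypes did not overlap at 1 month and overlapped at 2 months. The second probe did not overlap at either age. It read -0.18, -0.08 and -0.12 in knockout hearts and -0.70, -0.58 and -0.76 in dflox hearts at 2 months, and -0.18, -0.27 and -0.45 in knockout hearts and -1.10, -1.13 and -1.31 in dflox hearts at 1 month. Its differences were 0.55 at 2 months and 0.88 at 1 month.

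At 1 month place on the slide and genotype cannot be told apart within the age, and the airway epithelium markers also differed. The 10 of 11 that were measured, Epcam not passing the filter, summed to 3.57 to 7.65 in knockout hearts and 55.2 to 119 in dflox hearts at 1 month, and to 3.46 to 144 in knockout hearts and 3.25 to 150 in dflox hearts at 2 months (linear scale). The mean of these markers varied most within the 2-month groups, so a covariate for it takes its size mostly from them. With that mean as a covariate the 1-month difference was 0.69 for Ppp1r3c, 2.80 for Ppp1r1c and -1.25 for Ppp1r1b. With a term for place, whose size comes from the 2-month hearts, it was 0.88 for Ppp1r3c, 3.05 for Ppp1r1c and -1.17 for Ppp1r1b. Within slides the Ppp1r3c difference was 0.23 and 0.55 at 2 months and 0.96 and 0.90 at 1 month.

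Ppp1r3a encodes the large glycogen-targeting subunit of striated muscle, which also anchors PP1 at the sarcoplasmic reticulum. Its brightest probe read 1.96, 2.27 and 2.22 in knockout hearts and 2.61, 2.58 and 1.93 in dflox hearts at 2 months. At 1 month it read 1.84, 1.65 and 1.71 in knockout hearts and 1.52, 1.91 and 2.24 in dflox hearts. The genotypes overlapped at both ages, with differences of -0.22 (95% interval -0.70 to 0.26) at 2 months and -0.16 (-0.64 to 0.32) at 1 month. The probe that lies farthest upstream in the transcript, A_52_P634083, behaved differently at 2 months. It read -1.88, -2.35 and -2.09 in knockout hearts and -1.47, -1.42 and -1.43 in dflox hearts, so that every knockout heart was lower, by 0.66 on average. At 1 month its groups overlapped. A further probe, A_51_P139437, overlapped at both ages. Of 12 skeletal muscle markers, Myog did not pass the filter, and the other 11 summed to 326 to 357 in knockout hearts and 287 to 330 in dflox hearts at 2 months, and to 281 to 311 in knockout hearts and 301 to 338 in dflox hearts at 1 month (linear scale). Their part in these values was not tested.

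The 3 catalytic subunit genes showed the smallest genotype differences of the 9 at 2 months. Ppp1ca, encoding PP1α, averaged 5.45 ± 0.15 in knockout hearts and 5.45 ± 0.04 in dflox hearts at 2 months, and 5.55 ± 0.08 in knockout hearts and 5.61 ± 0.04 in dflox hearts at 1 month (SD, n = 3 each). Ppp1cb, encoding PP1β, the isoform that is part of myosin phosphatase, averaged 5.34 ± 0.22 in knockout hearts and 5.34 ± 0.05 in dflox hearts at 2 months, and 5.28 ± 0.03 in knockout hearts and 5.30 ± 0.05 in dflox hearts at 1 month (SD, n = 3 each). Ppp1cc, encoding PP1γ, averaged 3.62 ± 0.26 in knockout hearts (SD, n = 3) and 3.67 ± 0.04 in dflox hearts (SD, n = 2) at 2 months, where the spot of dflox replicate 2 was an outlier and was left out of the fit. At 1 month Ppp1cc averaged 3.80 ± 0.03 in knockout hearts and 3.78 ± 0.12 in dflox hearts (SD, n = 3 each). The genotypes overlapped for all 3 genes at both ages. The 6 differences lay between -0.06 and 0.02, and their 95% intervals between -0.39 and 0.32. Under quantile normalization the 2-month differences were 0.18 for Ppp1ca, 0.16 for Ppp1cb and 0.04 for Ppp1cc. The spread at 2 months in the knockout came in part from replicate 3, which had the lowest Ppp1cb (5.08) and Ppp1cc (3.37) values of the 12 hearts.

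**Figure D2:**
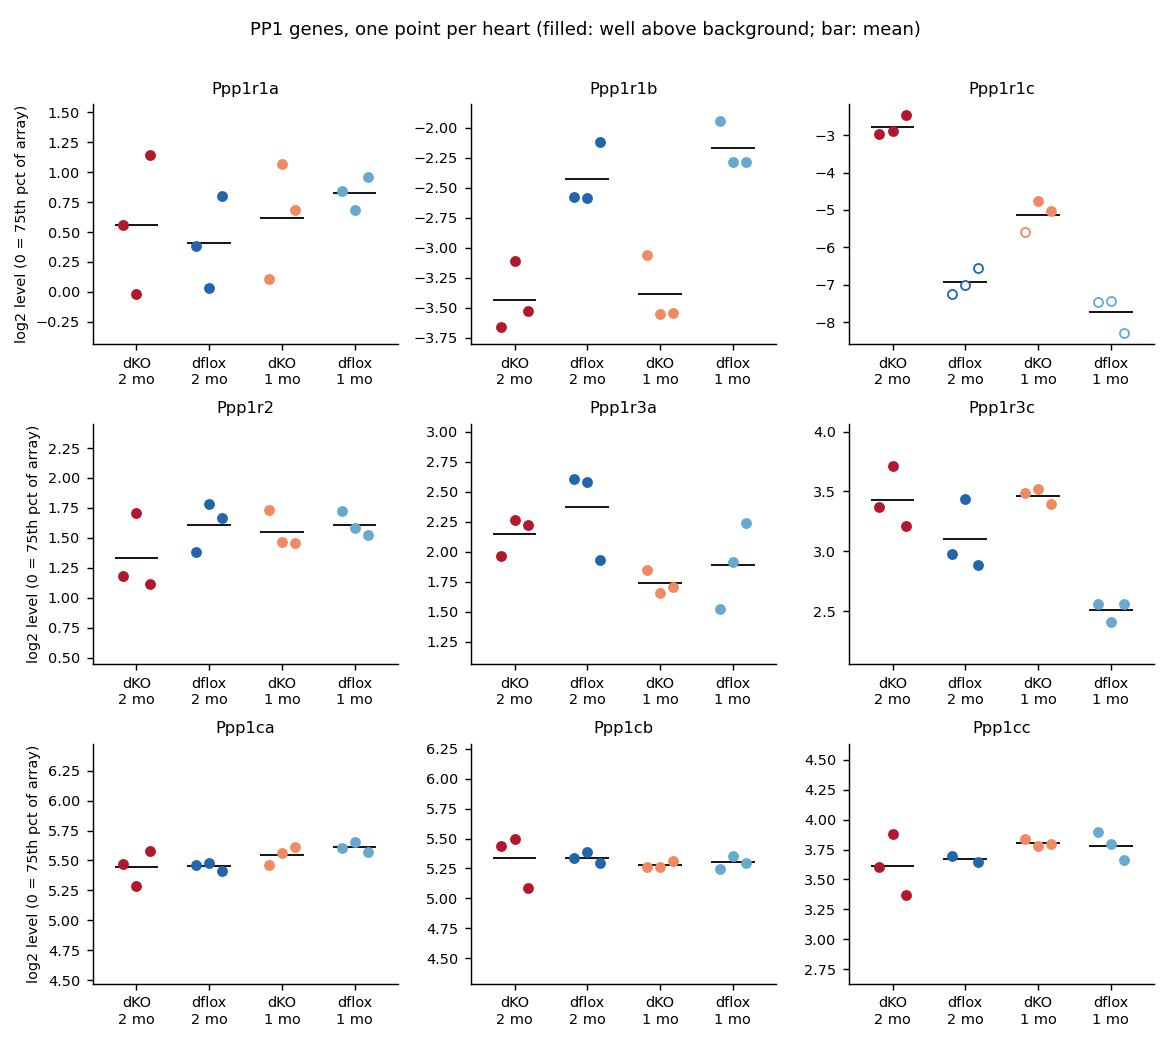
Log2 level (0 is the array's 75th percentile) of the 9 genes in each heart on the probe used in the fit, with a separate vertical scale per panel. Points are hearts (filled where well above background), bars are group means, dKO is cardioGRMRdKO and mo is months. Ppp1r1c and Ppp1r1b separate the genotypes at both ages, Ppp1r3c does so at 1 month, and the catalytic subunits overlap.

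The genotypes did not overlap for 2 of 9 genes at 2 months, beside 17.7% of all genes, and for 3 of 9 at 1 month, beside 18.9%. The genes were chosen with these comparisons in view, and nothing is read from these shares. The median difference of the 9 was -0.01 at 2 months and -0.06 at 1 month, and that of all genes -0.10 and -0.00.

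**Figure D3:**
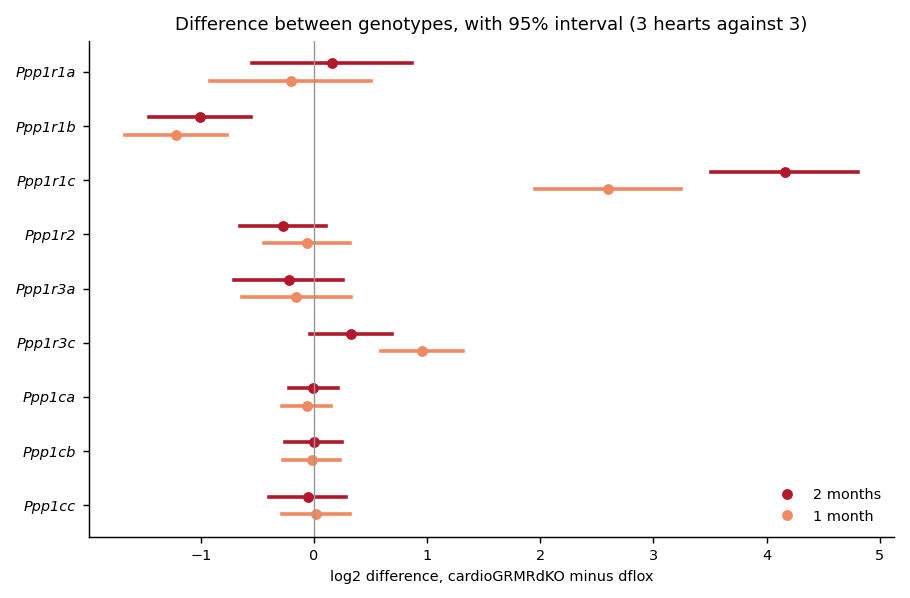
Log2 difference, cardioGRMRdKO minus dflox, for the 9 genes at 2 months and 1 month, with the 95% interval from limma (3 hearts against 3, except 2 dflox hearts for Ppp1cc at 2 months). Ppp1r1c lies at 4.16 and 2.60, Ppp1r1b at -1.01 and -1.22, Ppp1r3c at 0.33 and 0.95, and the other 6 genes between -0.28 and 0.16. These differences are not tested.

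The genotype difference of Ppp1r3c was smaller at 2 months by 0.62 (SE 0.232). In limma's test of the difference between the ages its unadjusted p was 0.0223 and its adjusted p 0.934. No gene of the 18258 passed that test at an adjusted p under 0.05 in limma. An unadjusted p under 0.05 was found for 644 genes (3.53%), Ppp1r3c among them.

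The change between 1 and 2 months was then examined within each genotype. In dflox hearts Ppp1r1c was not well above background at either age, and no difference is given for it. None of the other 8 genes changed at an adjusted p under 0.05 in limma, beside 0.553% of all genes. An unadjusted p under 0.05, found for 14.1% of all genes, was seen for Ppp1r3c, with a difference of 0.59, 2 months minus 1 month (SE 0.164, limma adjusted p = 0.141), and Ppp1r3a with 0.48 (SE 0.216, limma adjusted p = 0.352). All 3 dflox hearts at 2 months exceeded all 3 at 1 month for Ppp1r3c, on both probes, and for Ppp1r1c, whose 6 signals carry the limit just given. Of the dflox arrays, 1 of each age lay on slide 1. The others lay on slide 2 at 1 month and on slide 3 at 2 months. Age and slide can therefore be told apart only on slide 1, where the difference was 0.42 for Ppp1r3c and 1.09 for Ppp1r3a. On the probe used in the fit, the ages did not overlap in dflox hearts for 3 of 9 genes, beside 20.2% of all genes. The third was Ppp1ca, which was lower at 2 months by 0.16 (limma adjusted p = 0.489). Of the Ppp1r3a probes only A_52_P634083 separated the ages in dflox hearts, with 0.53.

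In knockout hearts 8 genes were tested between the ages and none passed an adjusted p under 0.05 in limma, beside 0.378% of all genes. None had an unadjusted p under 0.05, beside 12.4% of all genes. Ppp1r3c differed by -0.04 (SE 0.164, limma adjusted p = 0.974) and Ppp1r1b by -0.05 (SE 0.203, limma adjusted p = 0.972), while in dflox hearts Ppp1r1b differed by -0.25 (limma adjusted p = 0.582). On the second Ppp1r3c probe the knockout hearts were higher at 2 months by 0.17, and the ages did not overlap. Ppp1r3a differed by 0.42 (SE 0.216, limma adjusted p = 0.489). On that probe its 3 knockout hearts at 2 months lay above its 3 at 1 month. On its other probes the ages overlapped in knockout hearts, with 0.09 for A_52_P634083 and 0.11 for A_51_P139437. The difference of Ppp1r1c was 2.35 (SE 0.291), and 0.99 with normexp, with replicate 1 of 1 month not well above background. It is given without a test, since the gene was chosen for its level in knockout hearts. On the probe used in the fit, the ages did not overlap in knockout hearts for 2 of 9 genes, Ppp1r1c and Ppp1r3a, beside 18.0% of all genes.

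**Figure D4:**
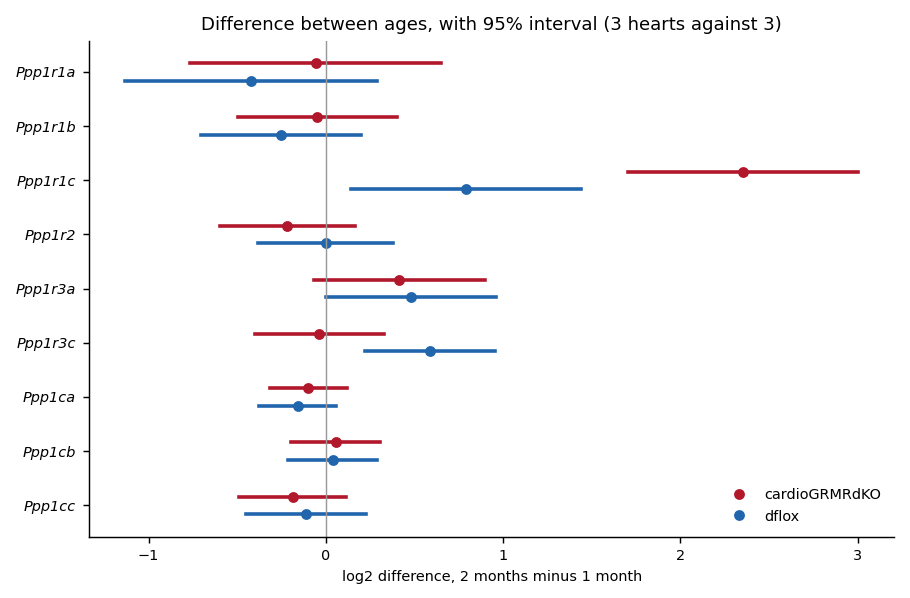
Log2 difference, 2 months minus 1 month, for the 9 genes in cardioGRMRdKO and dflox hearts, with the 95% interval from limma (3 hearts against 3, except 2 dflox hearts for Ppp1cc at 2 months). Ppp1r1c in cardioGRMRdKO hearts lies at 2.35, Ppp1r3c in dflox hearts at 0.59, the Ppp1r1c point in dflox hearts rests on signals not well above background, and no tested gene passed an adjusted p of 0.05.

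The rest of the PP1 system was described from 5 lists of genes around it. Over all genes, limma called 1.10% higher and 1.21% lower in knockout hearts at 2 months, and 0.438% higher and 0.542% lower at 1 month (Benjamini-Hochberg adjusted p under 0.05). With normexp, 36.4% of all calls at 2 months were higher, against 47.6% in the fit used here. An unadjusted p under 0.05 was found for 15.6% of all genes at 2 months and 9.40% at 1 month between genotypes, and between ages for 12.4% in knockout hearts and 14.1% in dflox hearts. Of 37 further PP1 inhibitors and regulatory subunits, 36 were on the array and 33 were measured, and none passed the test in any of the 4 comparisons (limma, adjusted p under 0.05). At an unadjusted p under 0.05 there were 6 at 2 months and 3 at 1 month between genotypes, 3 between ages in knockout hearts and 7 between ages in dflox hearts. The smallest p values at 2 months belonged to Phactr2, a PP1- and actin-binding protein, with -0.51 (SE 0.144, limma adjusted p = 0.124), to Ppp1r15a, the stress-induced GADD34 that directs PP1 to the translation factor eIF2α, with 0.41 (SE 0.123, limma adjusted p = 0.150), to Ppp1r16a, a myosin phosphatase-type targeting subunit, with 0.34 (SE 0.117, limma adjusted p = 0.205), and to Phactr3, a relative of Phactr2, with -0.50 (SE 0.185, limma adjusted p = 0.239). The mean of the 2 Phactr3 probes gave -0.95 (limma adjusted p = 0.00443). The median difference of the 33 genes was -0.02 at 2 months and -0.01 at 1 month.

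PKA, whose action PP1 opposes, was covered by 19 subunits, inhibitors and anchors, all measured. None passed the test in any of the 4 comparisons (limma, adjusted p under 0.05), with 3 at 2 months and 0 at 1 month at an unadjusted p under 0.05 between genotypes, 3 between ages in knockout hearts and 2 in dflox hearts. In the same order, the shares of all genes were 15.6%, 9.4%, 12.4% and 14.1%. Akap5, an anchor that gathers PKA and calcineurin at membranes, differed by -0.90 at 2 months (SE 0.277, limma adjusted p = 0.154) and by 0.12 at 1 month. Akap12, another anchor, differed by -0.42 at 2 months (limma adjusted p = 0.258). The PKA inhibitor genes Pkia and Pkig differed by -0.29 (limma adjusted p = 0.315) and -0.34 (limma adjusted p = 0.449). The list's median was 0.05 at 2 months and 0.07 at 1 month.

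Among 11 cardiac proteins that PKA phosphorylates or PP1 dephosphorylates, or that handle calcium beside them, 1 fell at 2 months and none passed at 1 month. This was Slc8a1, the sodium-calcium exchanger, which read 0.80, 1.16 and 1.02 in knockout hearts and 1.50, 1.77 and 1.63 in dflox hearts, giving a difference of -0.64 (SE 0.134, limma adjusted p = 0.0371). At 1 month it differed by -0.42 (limma adjusted p = 0.264). The call at 2 months was kept in 7 of 24 alternative settings, whose adjusted p ran from 0.0300 to 0.389. The highest came from the mean of its 4 probes, which gave -0.32, and on 1 of the 4 the difference was 0.00. The adjusted p was 0.114 without knockout replicate 1, 0.0825 without knockout replicate 3, 0.141 without dflox replicate 2 and 0.110 without dflox replicate 3 of 2 months. It was 0.0663 without knockout replicate 2, and 0.0635, 0.0613 and 0.0519 without dflox replicates 1, 2 and 3, of 1 month, whose removal leaves the difference as it is. Ryr2, the calcium release channel, differed by -0.43 at 2 months (SE 0.101, limma adjusted p = 0.0610) and by -0.34 at 1 month (limma adjusted p = 0.224), without overlap at either age. Tnni3, cardiac troponin I, differed by -0.40 (limma adjusted p = 0.285) and Atp2a2, the calcium pump of the sarcoplasmic reticulum, by -0.29 (limma adjusted p = 0.310) at 2 months. Under quantile normalization these were -0.12 and -0.01. Ryr2 and Tnni3 are also among the cardiomyocyte markers, whose sum was lowest in knockout replicate 3 at 2 months. Without that heart the 2-month differences were -0.39 for Ryr2 and -0.26 for Tnni3. The part of the marker sum in these values was not tested. The median of the 11 was -0.16 at 2 months and -0.09 at 1 month. At an unadjusted p under 0.05 in limma there were 4 (36.4%) at 2 months and 2 (18.2%) at 1 month between genotypes. The shares of all genes were 15.6% and 9.40%.

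None of 26 genes of other serine/threonine phosphatases passed the test in any of the 4 comparisons (limma, adjusted p under 0.05). Between genotypes 1 at 2 months and 0 at 1 month had an unadjusted p under 0.05, beside 15.6% and 9.4% of all genes. At 2 months Ppp4r1, a regulatory subunit of phosphatase 4, differed by -0.31 (limma adjusted p = 0.245), Ppp3cc, a calcineurin catalytic subunit, by -0.52 (limma adjusted p = 0.344), Ppm1k, a mitochondrial phosphatase of branched-chain amino acid breakdown, by -0.41 (limma adjusted p = 0.348) and Ppp6c by -0.21 (limma adjusted p = 0.407). The list's median was -0.09 at 2 months and -0.07 at 1 month.

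Of 17 genes of glycogen metabolism that PP1 acts on or works beside, 1 fell at both ages. This was Stbd1, which encodes a glycogen-binding protein that tethers glycogen to membranes. It read -0.76, -1.50 and -0.59 in knockout hearts and 0.16, 0.52 and 0.49 in dflox hearts at 2 months, a difference of -1.34 (SE 0.245, limma adjusted p = 0.0190). At 1 month it read -0.15, -0.50 and -0.80 in knockout hearts and 0.84, 0.57 and 0.94 in dflox hearts, giving a difference of -1.26 (SE 0.245, limma adjusted p = 0.0441). The call was kept in 19 of 24 alternative settings at 2 months, with adjusted p from 0.0104 to 0.220, and in 7 of 24 at 1 month, from 0.0143 to 0.794. At 2 months it was lost without dflox replicate 2 (0.0794) or dflox replicate 3 (0.0757). At 1 month it was lost when any 1 heart was left out other than knockout replicates 2 and 3 of 2 months, with adjusted p from 0.0516 to 0.185. Within slides the 2-month difference was -0.75 on slide 1 and -2.00 on slide 3, and without slide 3 it was -0.84 (limma adjusted p = 0.220). At 1 month it was -0.82 with a term for place (limma adjusted p = 0.794). Its other 2 probes gave -0.62 and -0.92 at 2 months, and -0.44 and -0.58 at 1 month. At 2 months Gbe1, the branching enzyme, differed by -0.41 (limma adjusted p = 0.366) and Phkb, a subunit of phosphorylase kinase, by 0.33 (limma adjusted p = 0.270). The list's median was -0.16 at 2 months and -0.09 at 1 month. Between genotypes 3 of its genes (17.6%) had an unadjusted p under 0.05 in limma at 2 months and 3 (17.6%) at 1 month, beside 15.6% and 9.40% of all genes. Between the ages none of the genes of these last 3 lists passed the test in either genotype (limma, adjusted p under 0.05). At an unadjusted p under 0.05 there were 5 genes of glycogen metabolism, 1 substrate and 0 other phosphatases in knockout hearts, and 2, 1 and 0 in dflox hearts. The shares of all genes were 12.4% in knockout hearts and 14.1% in dflox hearts.

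**Figure D5:**
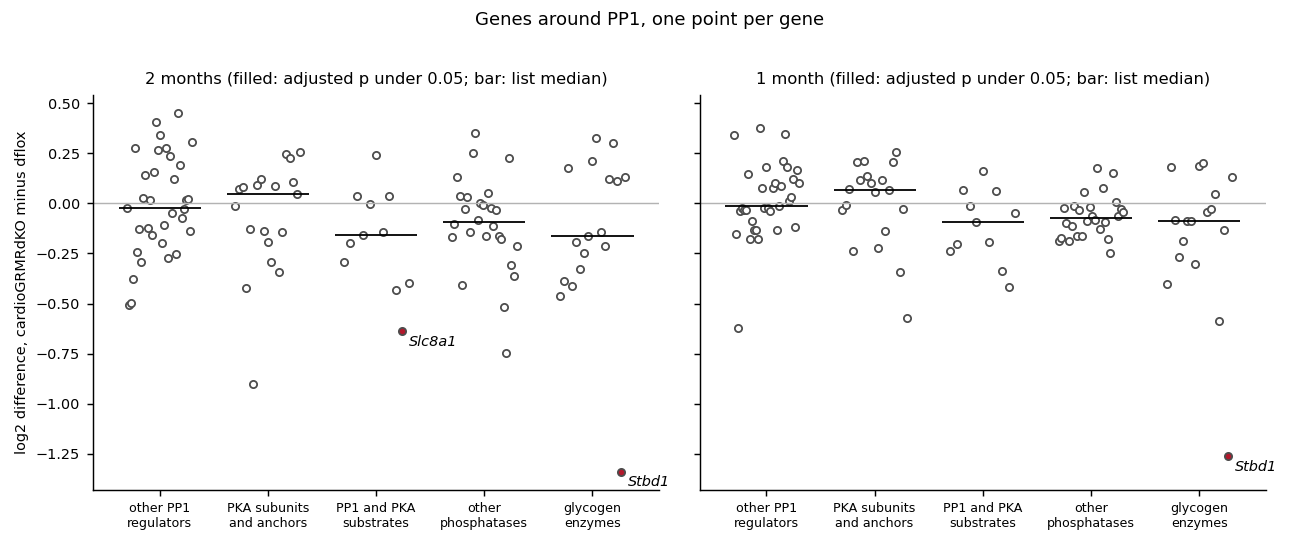
Log2 difference, cardioGRMRdKO minus dflox, of each measured gene in 5 lists around PP1, at 2 months and at 1 month. Each point is a gene, filled where the limma adjusted p was under 0.05, and bars are list medians. Slc8a1 at 2 months and Stbd1 at both ages are the filled points, at -0.64, -1.34 and -1.26.

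The 5 genes whose levels followed Ppp1r1c most closely over the 12 hearts were Gdf15 (Pearson r = 0.980), which encodes a stress-induced secreted factor, 7530428D23Rik (0.973), Lman1l (0.967), Exoc4 (0.965), a subunit of the vesicle-tethering exocyst, and Lmo2 (0.964), among 17781 other genes with a value on every array. Gdf15 read 1.52, 1.88 and 1.60 in knockout hearts and -1.52, -1.13 and -1.50 in dflox hearts at 2 months, and -0.11, 0.31 and -0.41 in knockout hearts and -2.10, -1.74 and -1.99 in dflox hearts at 1 month. It had the same order of groups as Ppp1r1c, with knockout hearts at 2 months highest, then knockout hearts at 1 month, and dflox hearts at 1 month lowest. Gdf15 was picked by its correlation with Ppp1r1c in these hearts, so this order is not a separate result. The Ppp1r1c values of dflox hearts that enter these correlations were not well above background. Ppp1r1b, the gene with the next largest 2-month difference, was followed most closely by the transcripts listed as NAP056404-1 (0.964), AK054250 (0.948), Spata48 (0.944), NAP102495-1 (0.943) and LOC432451 (0.924). These values describe 12 hearts in 4 groups that share genotype and age, and no p is given.

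RefSeq promoter windows (GRCm38.p6, 250 bases before to 50 after the start) were at hand for 6 of the 9 genes: Ppp1r1c, Ppp1r2, Ppp1r3a, Ppp1r3c, Ppp1cb and Ppp1cc. The consensus palindrome of the corticosteroid receptors (AGAACA, any 3 bases, TGTTCT) and its single arm AGAACA, which is part of the palindrome, were searched on both strands. Neither was in any of the 6 windows. Of 32851 windows of this length in the table, 0.00913% held the palindrome and 19.0% the single arm.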

How the data were processed

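RNA of each heart was hybridised to a 1-colour Agilent array. The deposited values are probe intensities that the authors obtained with Agilent Feature Extraction 9.5 (9.5.3.1 per the file headers), already background-subtracted by that program, on probes placed on mm7. The deposited series table holds the same processed intensities and was not used separately.

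Control spots and spots marked as outliers were left out, log2 of the processed signal of the deposited files was set relative to each array's 75th percentile (an intensity of 465.3 to 1067.8), and spots of a probe were averaged. Probes well above background in every heart of 1 or more groups were kept (26979 of 41174), and each gene was represented by its brightest kept probe. Group means of the 12 arrays were fitted with limma 3.58.1 in R 4.3.3, with Benjamini-Hochberg adjustment over 18258 genes, two-sided, at 0.05. Data were read with Python 3.11.15 and pandas 2.3.3. The procedure was tested on simulated data. The number of arrays limits the precision. Labels give each array as a separate heart.

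The 9 genes and all lists were chosen with earlier results of these data known, and the genotype difference of Ppp1r1c led to the choice. The 9 therefore have no p between genotypes within an age. For the change of the genotype difference between the ages, a p is given for Ppp1r3c. From each list of related genes the text names up to 4 tested genes with the smallest p between genotypes at 2 months, and for likeness the 5 genes with the highest Pearson r. One gene that this rule names is not reported here. Alternatives changed the normalization, background correction, filter, probe rule, slide, place, airway marker covariate, replicate block and the hearts included. Counting outlier spots in the percentile was added as an alternative after seeing the data.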

Additional observations from a re-analysis of the deposited data

How the results depend on the processing

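With 3 hearts a group, counts of genes past the threshold depended strongly on the setting, and the causes were not tested beyond what each setting removes. Between genotypes at 2 months (422 genes), normexp gave 242, no filter on dim probes 242, omission of slide 3 111, and omission of 1 heart 240 to 389. Between genotypes at 1 month (179) normexp gave 106, no filter 91, a term for place 9, the airway covariate 46, and omission of 1 heart 83 to 232. Between ages in dflox hearts (101) normexp gave 56, no filter 17, the filter on all 12 arrays 175, slide as a fixed term 10, omission of slide 3 26, a term for place 28, the airway covariate 19, and omission of 1 heart 3 to 147. Between ages in knockout hearts (69) normexp gave 33, no filter 13, place 16, the airway covariate 15, and omission of 1 heart 4 to 62. The test of the difference between ages (0) gave 136 without slide 3, 1 with place, and 0 for every omitted heart. Normexp gave 36.8% higher calls at 1 month against 44.7%, and quantile normalization 41.3% between ages in dflox hearts against 55.4%. Counting outlier spots in the percentile, chosen after seeing the data, gave 407, 173, 116, 64 and 0. Ppp1r1c has no value under the filter on all 12 arrays.

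The Ppp1r1b age difference in knockout hearts (-0.05) was -0.21 to 0.12 when 1 heart was left out, above 0 without knockout replicate 1 of 2 months (0.0683) or of 1 month (0.12). That of Ppp1r3c (-0.04) was 0.003 under quantile normalization, 0.0678 for the mean of its probes and 0.13 with the airway covariate, and -0.18 to 0.0726 when 1 heart was left out, the highest without knockout replicate 3 of 2 months. Neither was called.

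Replicate numbers are shared between groups, but same-numbered hearts did not deviate together (r from -0.49 to 0.55 over 18 pairs, 5 above 0.1), so the numbers are not taken as pairs. With the replicate block the counts were 326, 136, 75, 31 and 0, and 0 of 12 hearts correlated best with its own number in every group.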
